A study of Mus musculus with 3 samples.

Results

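Quiet inhibitory neuron cultures were described from 1 library, the one taken before any potassium chloride was added. It is 1 of 3 libraries in the series and was chosen by its label alone, so no measured value entered the choice. Cells from the medial ganglionic eminence (MGE) of wild-type C57Bl/6 mouse embryos at embryonic day 14 were kept in culture for 10 days. From day 9 they were held overnight in TTX, which blocks voltage-gated sodium channels, and AP-5, which blocks NMDA receptors. This library is the 0 h, unstimulated control. The other 2 cultures carried the same genotype, age and silencing and then received 55 mM KCl for 1 or 6 h, and they are not compared here. The labels give 1 culture library at 0 h, name no number of embryos or dishes, and describe a culture rather than sorted cells. All statements therefore hold for this library, and every interval covers counting error of reads only.

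The MGE is a transient swelling of the embryonic ventral forebrain. Its dividing cells make GABAergic interneurons that migrate into the cortex, many of which later produce somatostatin or parvalbumin. Nkx2-1 sets up MGE identity in progenitors, Lhx6 acts after the last division, and Dlx genes are shared by all ganglionic eminences. GABAergic cells make GABA with the decarboxylases GAD67 and GAD65, load it into vesicles and take it up again after release. The cultures are immature compared with adult cortex, where parvalbumin and several receptor subunits appear late. Total RNA without a poly(A) selection also holds unspliced transcripts and structured noncoding RNAs.

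The RNA was total RNA after removal of ribosomal RNA, in strand-specific sequencing, and reads that mapped to 1 place were counted per gene. The library held 8996897 such reads. Of these, 2189394 (24.3%) lay in exons on the sense strand and 2123187 (23.6%) in introns on the sense strand. Antisense reads made up 1.55% of exonic reads on both strands. Levels are given as RPKM, reads per 1000 exonic bases and 1000000 exonic reads, which allows genes of different length to be compared. A gene was called measured at 20 or more exonic reads. This held for 9687 of 25562 gene models (37.9%), while 13210 (51.7%) had 3 reads or fewer. The median RPKM of measured genes was 16.8, and a gene belonged to the top 10.0% of all models from an RPKM of 32.0 upward. The limit that a count of 0 allows, 3 reads, corresponds to 1.37 reads per 1000000 exonic reads.

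The 5 marker genes of MGE-derived interneurons were all present. Somatostatin (Sst), the peptide of a large interneuron class, had 1146 reads and an RPKM of 874 (exact Poisson 95% interval 824 to 926), rank 23 of all models. It lies at chr16:23889667-23890930 on the minus strand of mm9. Gad1, which encodes GAD67, stood at 394 (379 to 409, 2787 reads, chr2:70400221-70440069, plus strand). Reln, the secreted protein reelin, had 8025 reads, sixth of all models, and an RPKM of 313 (306 to 320, chr5:21390272-21850523, minus strand). Gad2, which encodes GAD65, stood at 174 (166 to 181, 2140 reads, chr2:22477847-22549397, plus strand), and Lhx6 at 107 (99.9 to 114, 838 reads, chr2:35937473-35960928, minus strand). The 5 genes lay between ranks 23 and 480 by RPKM and together held 14936 reads, 0.682% of all exonic reads (exact binomial interval 0.671% to 0.693%). The span of Gad1 overlaps that of another model on its strand, so some of its reads may be shared with that model. The 5 genes were thus high in a culture labelled as MGE-derived. They were chosen as markers for that label, so their levels are no test of it. Glial genes were also high, as described further on.

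At the very top of the library stood structured noncoding RNAs, and 4 of them are shown because the intronic reads of their host gene turn on them. Small nucleolar RNAs (snoRNAs) of the C/D type guide the methylation of ribosomal RNA and are mostly cut out of introns of other genes. The sequences are the GENCODE M21 transcripts on build GRCm38, and capitals mark the first TGATG, from the C box, and the last CTGA, the D box.
Snord32a: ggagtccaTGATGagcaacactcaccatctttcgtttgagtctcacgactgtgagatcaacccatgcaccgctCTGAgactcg
Snord33: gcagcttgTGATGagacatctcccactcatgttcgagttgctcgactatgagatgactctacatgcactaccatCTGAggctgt
Snord34: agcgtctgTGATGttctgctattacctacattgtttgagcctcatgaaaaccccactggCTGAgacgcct
Snord35a: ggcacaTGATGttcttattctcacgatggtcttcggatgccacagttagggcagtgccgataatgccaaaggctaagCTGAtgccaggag
The letters were searched on the transcript strand only. Both were found in this order in 364 of 454 GENCODE snoRNA transcripts of 60 to 100 bases (80.2%), so their presence here is usual for the class.

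All 4 lie close together on chromosome 7, minus strand. In mm9 their models span chr7:52382753-52382833 (Snord32a, named Rnu32 in the files), chr7:52382234-52382315 (Snord33, Rnu33), chr7:52381973-52382038 (Snord34, Rnu34) and chr7:52381717-52381805 (Snord35a, Rnu35a). They sit in separate introns of Rpl13a, a ribosomal protein gene. Snord32a had 2756 reads and the highest RPKM of all models, 15541 (14966 to 16132). Of the others, Snord33 stood at 7481 (7086 to 7892), Snord34 at 5619 (5240 to 6020) and Snord35a at 2771 (2542 to 3015). The intervals of these 4 do not overlap, although all come from 1 host transcript. Reads of 35 bases on RNAs of this length make RPKM depend strongly on how many positions a read can take.

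Rpl13a itself had 66 exonic and 5522 intronic reads, an intronic share of 98.8%. Nearly all of its intronic reads were those of the snoRNAs, whose models lie in its introns on the same strand, so that their reads are counted in both. Intron 2 held 2771 reads, 2756 of them in Snord32a. Intron 4 held 1359, of which 1343 were in Snord33, intron 5 held 843, of which 812 were in Snord34, and intron 6 held 544, of which 540 were in Snord35a. Introns 1, 3 and 7 held 4, 1 and 0 reads. Without the 4 snoRNA introns the gene kept 5 intronic reads and its share was 7.04%.

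**Figure D1:**
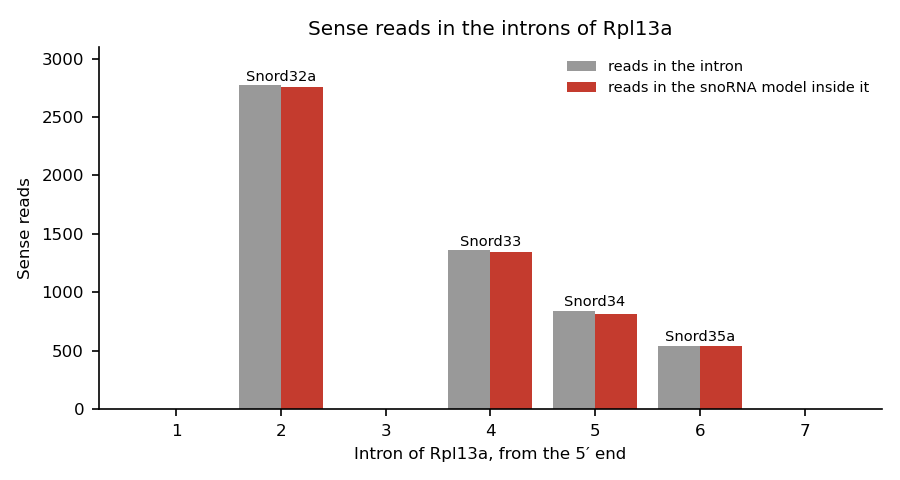
Sense reads in each intron of Rpl13a (grey bars) and in the snoRNA model inside that intron (red bars), in the 0 h library. The 4 introns of Rpl13a with a snoRNA held 544 to 2771 reads each, while its other 3 held 0 to 4.

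Among models of at least 200 exonic bases, Rmrp led with an RPKM of 15093 (14784 to 15406, 9087 reads). Under the authors' coverage, which is corrected for mappability, Snhg1 (index 0.129) ranked 2 of all models and Rmrp 4. Rmrp is the RNA of the RNase MRP ribonuclease, which acts in ribosomal RNA processing. Its 275-base model lies at chr4:43505657-43505931 in mm9, minus strand. The RNA is printed here as the highest by RPKM of these longer noncoding transcripts (GENCODE M21, GRCm38, no capitals since no motif was searched).
Rmrp: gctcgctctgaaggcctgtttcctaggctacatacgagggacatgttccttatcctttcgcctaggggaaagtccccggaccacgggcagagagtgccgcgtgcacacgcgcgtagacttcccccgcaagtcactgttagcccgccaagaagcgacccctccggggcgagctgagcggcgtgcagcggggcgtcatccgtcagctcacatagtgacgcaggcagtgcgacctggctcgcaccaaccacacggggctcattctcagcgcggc

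The rest of the top 15 mixed neuronal, glial and general genes with models of unclear content. Protein-coding genes there were Tmsb4x at 1691 (thymosin beta 4, which binds actin monomers), Fabp7 at 1250 (a fatty acid binding protein of radial glia and astrocytes), Nnat at 1164 (neuronatin, an imprinted gene), Sst at 874, Stmn2 at 834 (a tubulin-binding protein of growing neurites), Actb at 834, Uchl1 at 794 and Cox4i1 at 757. Stmn2 (807 to 862) and Actb (806 to 862) could not be told apart by counting error. Actb has near-identical copies and an exonic mappability index of 0.316, where a value near 1 means fully mappable, so its level is a lower bound. The models of the snoRNA host genes Snord22 (Snhg1) and Gas5 stood at 3483 and 1541. Only 3 of 20802 exonic reads of Snhg1 and 39 of 8619 of Gas5 crossed a splice. How many of the others come from snoRNAs inside these models was not tested. The 2 values are therefore no firm level of the spliced host RNAs. The predicted models LOC627695, LOC100042862 and LOC100039686 stood at 3657, 1540 and 1214, and no function is given for them here.

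Lars2, a mitochondrial leucyl-tRNA synthetase, ranked high at 1025, but 8625 of its 8706 exonic reads (99.1%) lay in the last of its 21 exons. The other 20 exons held 0 to 15 reads each. Its level is therefore that of 1 stretch of the model rather than of the whole transcript. That last exon has 1166 of the 3881 exonic bases of Lars2. In Gas5, 99.4% of exonic reads lay in the first exon, which has 2382 of its 2554 exonic bases. In Snhg1, 86.2% lay in the first exon, with 1770 of 2728 bases. In these 2 genes the first exon makes up most of the model, so the shares are less uneven than in Lars2.

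Ranked by reads without regard to length, long neuronal transcripts came forward. Behind Snhg1 (20802 reads), LOC627695 (11771), Rmrp (9087), Lars2 (8706) and Gas5 (8619) stood Reln (8025) and Mtap1b (Map1b, 6902), a microtubule-associated protein of growing axons. Ttc3 had 5094 reads and Dpysl2, an axon growth protein, 4857. Macf1 (4755), Ncam1 (4391) and the dynein heavy chain Dync1h1 (4332) closed the 15. Macf1 shows how far the rankings differ, since its 24210 exonic bases gave it an RPKM of 89.7 and rank 639 by length. The 15 genes with most reads held 5.19% of exonic reads.

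General neuronal genes filled the upper part of the range. All 15 neural identity genes were measured, with a median RPKM of 232, and 13 were in the top 10.0%. Stmn2 at 834 was followed by Tubb3 at 508 (the neuronal beta-tubulin, an undercount at a mappability index of 0.324), Snap25 at 344 (a vesicle fusion protein) and Gap43 at 340 (a growth cone protein). The last 2 had overlapping intervals. D11Bwg0517e (Rbfox3), the gene of the NeuN antigen of mature neurons, was the lowest of the list at 6.43 (4.95 to 8.21, 64 reads), beside Nefm at 6.50. Dcx, expressed in migrating and young neurons, stood at 198. Rbfox3 and Nefm lay below the median of all measured genes, while the other 13 lay above it.

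Lineage factors of the MGE were present at moderate levels. Of 18 matched factors, 15 were measured, with a median RPKM of 22.7, and the median percentile over all 18 was 82.9 among all models. Lhx6 was highest at 107. Maf, linked to somatostatin and parvalbumin interneurons, stood at 72.5 (66.7 to 78.7), and Cutl2 (Cux2) at 54.0. Zeb2 at 44.5, Sox6 at 41.4 and Dlx1 at 35.3 were also in the top 10.0%. Satb1, which acts in the maturation of somatostatin cells, had 22.0.

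Factors that define progenitors were low. Titf1 (Nkx2-1) had 61 reads and an RPKM of 9.92 (7.59 to 12.7), and Lhx8, a factor of MGE-derived cholinergic and early cells, was the lowest measured at 6.47 (4.30 to 9.34, 28 reads). Lhx6 was 10.8 times Nkx2-1 per length (8.31 to 14.2) and 16.6 times Lhx8 (11.4 to 25.1). Gsh2 (Gsx2) had 5 reads, Npas1 had 4, and Gsh1 (Gsx1) had none. Dlx1 was 2.47 times its neighbour Dlx2 (1.90 to 3.25). Dlx6 matched no gene in the table and was not analysed here.

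Factors of other forebrain lineages were measured less often than the MGE factors and stood lower, but not below gene models at large. Of 16 genes of the caudal and lateral eminences and the striatum, 8 were measured (50%, against 37.9% of all models). Only Bcl11b (Ctip2), at 40.2, was in the top 10.0%. The median percentile over all 16 lay above the middle of all models but below the 82.9 of the MGE factors. Sp9 stood at 19.1, Mrg1 (Meis2) at 17.8 and Nr2f1 at 16.5. Bcl11b and Sp9 are also expressed in MGE-derived interneurons. Foxp2 was the lowest measured at 1.61, while Isl1 (3 reads), Gbx2 (2) and Sp8 (1) were at or under 3 reads. The 16 genes together held 0.0575% of exonic reads, against 0.229% for the 18 MGE factors.

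Pallial and excitatory factors were mostly at 3 reads or fewer, which held for 9 of 12 (against 51.7% of all models). The share measured was 8.33%, against 37.9% of all models, and the median percentile over all 12 was 43.6. Lhx2 was the 1 measured gene of 12, at 21.4 (17.5 to 25.8), and it is also expressed in progenitors and glia. Tbr1, the marker of early deep-layer excitatory neurons, had 3 reads, Neurod6 had 2, and Fezf2 and Eomes had 1 each. Emx1, Neurod1, Neurod2, Neurog1 and Neurog2 had none. Emx2 had 8 reads.

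**Figure D2:**
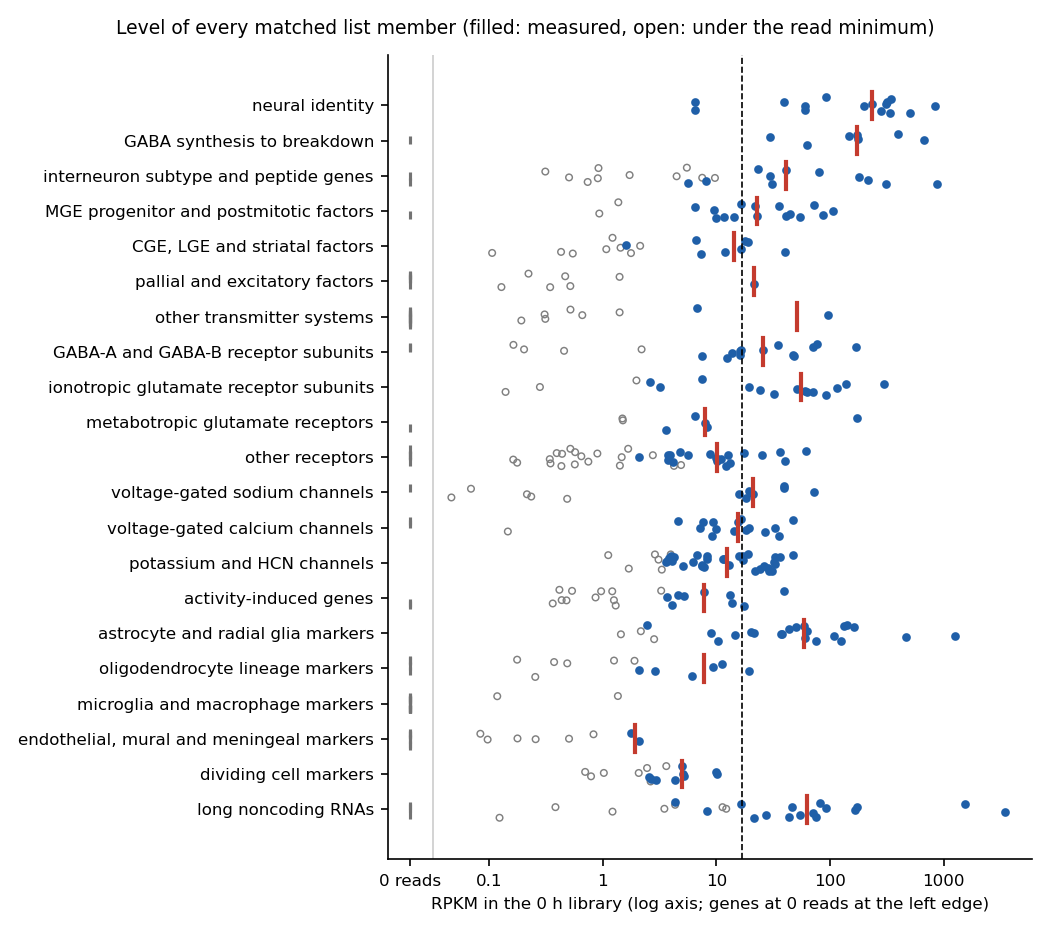
RPKM of each matched member (log axis) in 21 gene lists of the 0 h library, with filled points for genes of at least 20 reads, open points under that, tick marks for 0 reads and a red bar at the median of measured members. The dashed line is the median of all measured genes, 16.8, which the GABA and neural identity medians (174 and 232) exceed and the activity-induced median (7.85) does not reach.

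Genes of GABA handling formed a high group. Of 8 genes, 7 were measured and 6 were in the top 10.0%, with a median RPKM of 174. Gad1 stood at 394. Abat, the transaminase that breaks GABA down, stood at 176 (168 to 184) and could not be told apart from Gad2 at 174 (166 to 181). Slc32a1, the vesicular GABA transporter, had 148 (139 to 158). Aldh5a1, the next enzyme of GABA breakdown, was the lowest measured at 29.8 (25.1 to 35.1).

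Transporters that take up GABA outside neurons differed. Slc6a11 (GAT-3), which is found mainly in astrocytes, stood at 63.0 (57.9 to 68.5). Slc6a13 (GAT-2), known from meninges and liver, had 0 reads. Gad1 was 2.27 times Gad2 (2.14 to 2.40), and 3.24 times under the authors' coverage corrected for mappability, since the exonic index is 0.654 for Gad1 and 0.933 for Gad2.

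Most markers of other transmitters were at or under the floor of 3 reads. This held for 14 of 18 genes, against 51.7% of all models, while 1 of the 18 was in the top 10.0%. No read was counted for the vesicular glutamate transporters Slc17a6 and Slc17a7, the cholinergic genes Chat, Slc18a3 and Slc5a7, or Dbh, Slc18a2, Tph2, Slc6a4 and the glycine transporter Slc6a5. Slc17a8 and Nos1 had 3 reads each, Th had 2 and Hdc had 1. Ddc had 6 and the dopamine transporter Slc6a3 had 5. Of the 2 measured genes, Ache, the enzyme that breaks acetylcholine down, had 6.70 (4.58 to 9.45). In a culture such as this, fewer cells of a type and less RNA per cell cannot be told apart.

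Subtype genes of interneurons ranged from the top of the library to 0. Sst at 874 and Reln at 313 were followed by Nxph1 at 217 (neurexophilin, a secreted neurexin ligand of inhibitory cells, with an index of 0.657) and Erbb4 at 179 (the neuregulin receptor of interneurons). Npy, a peptide that overlaps with somatostatin cells, stood at 80.2 (64.9 to 97.9), so Sst was 10.9 times Npy per length (8.85 to 13.6). The chemokine receptors of migrating interneurons, Cxcr7 (Ackr3) and Cxcr4, had 41.1 and 30.7, and A930017N06Rik (Elfn1), a synaptic protein of somatostatin cells, had 29.8.

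Markers of late or other subtypes were low. Chodl, of long-range somatostatin cells, was the lowest measured at 5.60 (3.80 to 7.94, 31 reads). Calb1 stood at 23.3 and Crhbp at 8.17, while Cck, Tac1, Penk1 (Penk) and Calb2 had 14 to 17 reads each. Pvalb and Cort had 1 read each, Crh had 2 and Nos1 had 3. Vip and Cartpt had none. Pdyn had 9 reads and Htr3a, of caudal eminence cells, had 4. Of the 23 genes, 11 were measured (47.8%, against 37.9% of all models), and the median percentile over all 23 was 69.3.

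Receptors for GABA were led by the metabotropic subunit Gabbr1 at 169 (161 to 177). Its partner Gabbr2, needed for a working GABA-B receptor at the surface, stood at 35.2 (31.4 to 39.3). Of 19 subunits, 13 were measured (68.4%, against 37.9% of all models) with a median of 25.9. Among GABA-A subunits, Gabrb2 stood at 48.1 (44.9 to 51.6) and the alpha subunit Gabra2 at 47.4 (41.6 to 53.6), with overlapping intervals.

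Among alpha subunits Gabra2 at 47.4 stood above Gabra3 at 25.9, Gabra5 at 16.2 and Gabra4 at 12.4. Gabra2 was 1.83 times Gabra3 (1.48 to 2.27), and both are prominent early in development. Gabra5 and Gabra4 had overlapping intervals. Gabrg3, Gabrg1 and Gabrb1 stood at 16.4, 16.1 and 13.8. Gabrd, of extrasynaptic receptors, had 9 reads, and Gabrq had 2, Gabrr1 and Gabre 1, and Gabra6 and Gabrr2 none.

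Genes that shape the chloride response were all measured. Slc12a5 (KCC2), which extrudes chloride and is neuronal, stood at 74.5 (69.8 to 79.4). Slc12a2 (NKCC1), which imports it and is also found in glia, was the lowest of the 5 at 14.2 (12.5 to 16.2), 0.191 of Slc12a5 (0.165 to 0.221). The inhibitory synapse genes Nlgn2 and Gphn (gephyrin) had 51.3 and 41.9.

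Of 17 ionotropic glutamate receptor subunits, 14 were measured and 9 were in the top 10.0%, with a median of 56.0. Gria1 led at 301 (291 to 311), followed by the kainate receptor subunit Grik1 at 138 (130 to 146), Gria2 at 116 (111 to 122) and Grik2 at 91.4. Gria2 is the AMPA subunit that limits calcium entry, and it stood at 0.387 of Gria1 (0.366 to 0.409) but at 1.66 times Gria4 (1.53 to 1.80). Gria4 had 70.2 and Gria3 24.4. Grin3a matched no gene in the table and was not analysed here.

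NMDA receptor genes showed a wide gap between the main regulatory subunits. The obligatory subunit Grin1 at 60.6 and Grin2b at 62.4 did not differ beyond counting error, with a ratio of 0.971 (0.863 to 1.09). Grin2a, which rises after birth in forebrain, had 26 reads and an RPKM of 2.63 (1.72 to 3.86), the lowest measured of the list. Grin2b was 23.7 times Grin2a (16.1 to 36.5). The exonic mappability index was 0.460 for Grin2a and 0.955 for Grin2b, so Grin2a is undercounted, and the ratio was 10.2 under the authors' coverage. Grin2d had 19 reads, Grin2c had 3 and Grin3b had 1. These are transcript levels in cells kept in AP-5, a blocker of the receptor itself.

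Metabotropic receptors were dominated by 1 gene. Grm5, which couples to calcium release, stood at 174 (167 to 181). Grm7 had 7.87 and Grm4 had 6.45, and Grm3 was the lowest measured at 3.62 (2.40 to 5.23). Grm2 had 11 reads, Grm8 had 12 and Grm6, a gene of retinal bipolar cells, had none. Grm5 was the 1 member of this list of 8 in the top 10.0%.

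**Figure D3:**
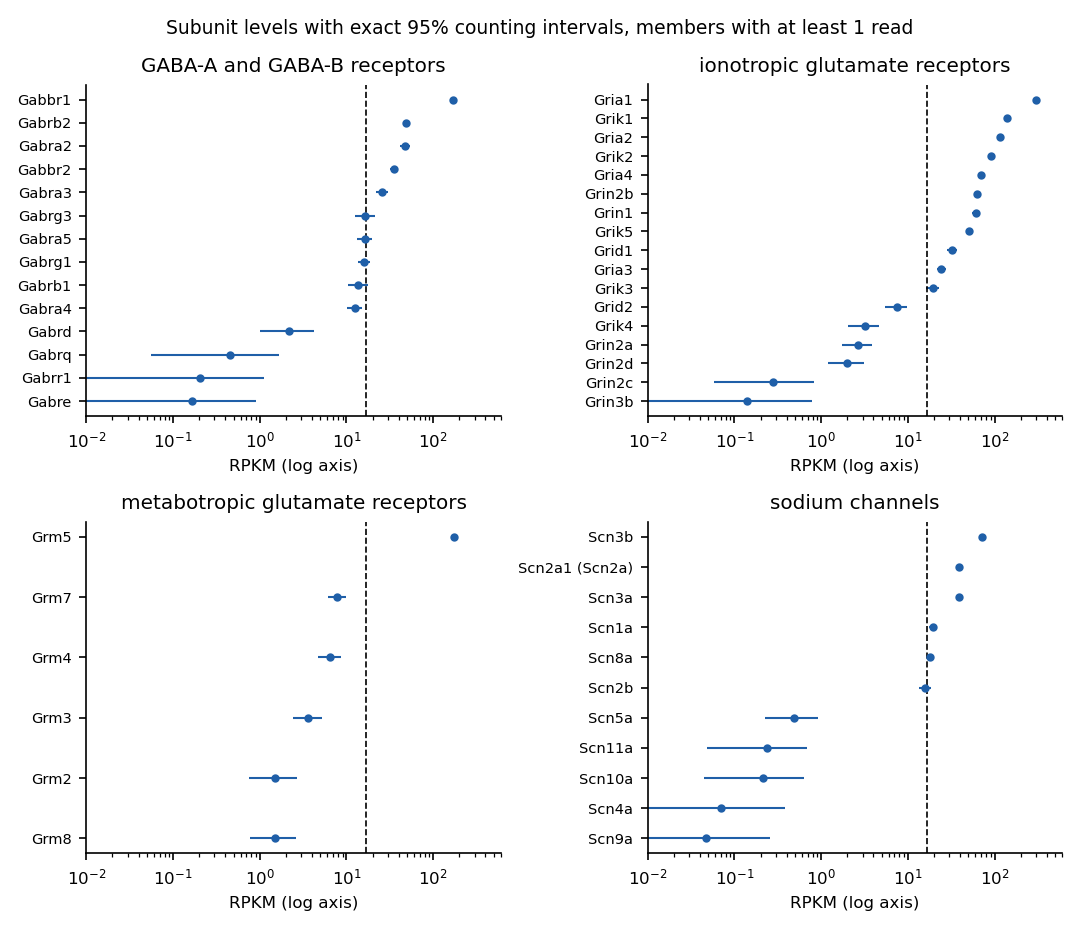
RPKM (log axis) of subunit genes with at least 1 read in 4 lists of the 0 h library, with exact Poisson 95% intervals that are cut at the left edge for genes with 1 read, and the median of measured genes as a dashed line. Gria1 (301), Grm5 (174), Gabbr1 (169) and Scn3b (72.1) led their lists, and the genes under 20 reads lay at 2.20 or lower.

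Receptors for other transmitters and growth factors were measured for 19 of 43 genes (44.2%, against 37.9% of all models), with a median percentile of 57.5 over all 43. Ntrk2, the receptor of BDNF, led at 61.4 (58.2 to 64.8), followed by the cannabinoid receptor Cnr1 at 40.3, the nociceptin receptor Oprl1 at 36.1 and the nicotinic subunit Chrnb2, with 292 reads and an RPKM interval of 22.2 to 28.0. The neurokinin receptor Tacr1 was the lowest measured at 2.09 (1.33 to 3.14). Sstr1 and Sstr4, receptors for somatostatin, stood at 12.3 and 9.87, Sstr2 had 7 reads, and Sstr3 and Sstr5 had none.

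In this list 15 genes had 3 reads or fewer, against 51.7% of all models. Besides Sstr3 and Sstr5, these included the dopamine receptors Drd3 (0), Drd4 (1) and Drd5 (1), the opioid receptors Oprm1 (3) and Oprk1 (2), the muscarinic receptor Chrm5 (2) and the nicotinic subunits Chrna3 (3), Chrna5 (1) and Chrnb4 (0). The adrenergic receptor Adra2c (3) and the serotonin receptor Htr1b (1) were also among them.

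Sodium channels, the targets of TTX in these cultures, were measured for 7 of 13 genes (53.8%, against 37.9% of all models). The auxiliary subunit Scn3b was highest at 72.1 (67.0 to 77.5). The pore-forming subunits Scn2a1 (Scn2a) at 39.3 and Scn3a at 39.2, both early forms, had a ratio of 0.998 (0.895 to 1.11) of Scn3a over Scn2a, with indices of 0.703 and 0.752. Scn1a, the main adult interneuron channel, stood at 19.3 and Scn8a at 18.2. Scn2a was 2.03 times Scn1a (1.79 to 2.31). Scn2b was the lowest measured at 15.7 (13.4 to 18.4). Scn10a and Scn11a, of sensory neurons, had 3 reads each, Scn4a and Scn9a had 1 each and Scn4b had none.

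Calcium channels were measured for 15 of 18 genes (83.3%, against 37.9% of all models) with a median of 15.6. Cacna1b, of N-type channels, was highest at 46.8 (43.5 to 50.3), followed by the auxiliary subunits Cacnb3 at 35.4 and Cacna2d2 at 32.9 and by Cacna1a, of P/Q-type channels, at 26.6. The L-type genes Cacna1c and Cacna1d had 15.6 and 10.0. Cacna1g, of T-type channels, was the lowest measured at 4.55 (3.59 to 5.70). Cacna1s, of skeletal muscle, had 2 reads, and Cacna1f and Cacna2d4, known from retina, had none.

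Potassium and HCN channels were broad but low, with 32 of 38 genes measured, a median of 12.4 and 5 genes in the top 10.0%. The A-type channels Kcnd2 at 46.9 and Kcnd3 at 32.8, the delayed rectifier family member Kcna6 at 36.2 and the large-conductance calcium-activated channel Kcnma1 at 32.7 were highest. Kcnip1, a partner of the Kcnd channels, stood at 32.2. Kcnc1 and Kcnc2, which support fast spiking, had 15.7 and 22.0, a ratio of 0.717 (0.616 to 0.835). Their order is uncertain, since the index is 0.661 for Kcnc1 and 0.989 for Kcnc2 and the ratio was 1.07 under the authors' coverage. Kcnf1 was the lowest measured at 3.61 (2.52 to 5.02), and no member of the list was at or under 3 reads.

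Genes known to be induced by activity were measured about as often as gene models at large. Of 22, 9 were measured (40.9%, against 37.9% of all models), and 8 had 3 reads or fewer (against 51.7% of all models). The median percentile over all 22 was 54.3. The median RPKM of the 9 was 7.85, below the 16.8 of all measured genes, and Jun, at 39.1 (34.5 to 44.0), was the 1 member in the top 10.0%. Homer1 had 17.6, Dusp1 had 13.7 and Egr1 had 13.2. Fosl2 was the lowest measured at 3.70 (2.72 to 4.92). Fos had 21 reads and an RPKM of 4.58 (2.84 to 7.01), and Npas4 had 9 reads. Egr2, Egr3, Fosb, Ier2 and Vgf had 3 reads each, Egr4 had 2, and Nr4a1 and Bdnf had none. The whole list held 0.0372% of exonic reads.

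Glial genes were a second high group. Of 24 astrocyte and radial glia markers, 21 were measured, 15 were in the top 10.0%, and their median was 58.6. Fabp7 at 1250 (1197 to 1305) ranked 16 of all models. Apoe stood at 463 (436 to 491), Slc1a3 (the glutamate transporter GLAST) at 162 (154 to 171) and the intermediate filament Vim at 141 (131 to 152). Aldoc at 133, Ptprz1 at 125 and Glul at 109, an undercount at an index of 0.505, followed. The list held 0.532% of exonic reads (0.522% to 0.542%), against 0.658% (0.648% to 0.669%) for the 8 genes of GABA handling.

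The glial markers varied widely among themselves. Gfap, the classical marker of mature astrocytes, had 61 reads and an RPKM of 21.3 (16.3 to 27.4), so that Fabp7 was 58.7 times Gfap (45.5 to 77.0). Aqp4, the water channel of astrocyte endfeet, had 20.3, and Slc1a2 (GLT-1), which appears later than Slc1a3, had 38.2. Progenitor and radial glia genes lay on both sides of Gfap. Hes5 at 14.7, Sox9 at 10.3 and Nes at 9.02 lay below it, and Hes1 had 9 reads. Sox2 at 43.9 (38.5 to 49.8), Fabp7, Slc1a3, Vim and Ptprz1 lay above it. Tnc was the lowest measured at 2.47 (1.74 to 3.41). S100b had 2 reads and Id3 had 3. The part of these cells in the levels of genes shared by neurons and glia was not tested.

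Markers of oligodendrocytes and of dividing cells included none in the top 10.0%. Of 16 oligodendrocyte lineage genes, 6 were measured (37.5%, against 37.9% of all models). The progenitor factors Olig1 at 19.6 and Olig2 at 9.37, Cnp1 (Cnp) at 11.2 and Pdgfra at 6.10 led, and Cspg4 at 2.08 was the lowest measured. Sox10 had 3 reads, Nkx2-2 and Gpr17 had 2 each, Cldn11 had 1, and the myelin genes Mog, Mag and Mobp and Tmem10 (Opalin) had none. Of 16 genes of dividing cells, 9 were measured (56.2%), with a median percentile of 59.6 over all 16, from Cenpf at 2.55 to Ccna2 at 10.1, with Top2a at 9.94, Mki67 at 5.19 and Mcm2 at 5.14 between them and Aurkb at 3 reads. Their sum was 0.0243% of exonic reads.

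The 13 microglial and macrophage genes had 4 reads in all, 3 of Cd68 and 1 of Csf1r. Aif1, Cx3cr1, Itgam, Ptprc, P2ry12, Tmem119, C1qa, C1qb, C1qc, Tyrobp and Trem2 had none. Of 14 vascular and meningeal genes, the pericyte-related Cspg4 at 2.08 and Pdgfrb at 1.79 were measured. Pecam1 had 6 reads, Rgs5 and Col1a2 had 2 each, and Acta2, Col1a1 and Kdr had 1 each. Cldn5, Flt1, Tek, Cdh5, Dcn and Lum had none.

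**Figure D4:**
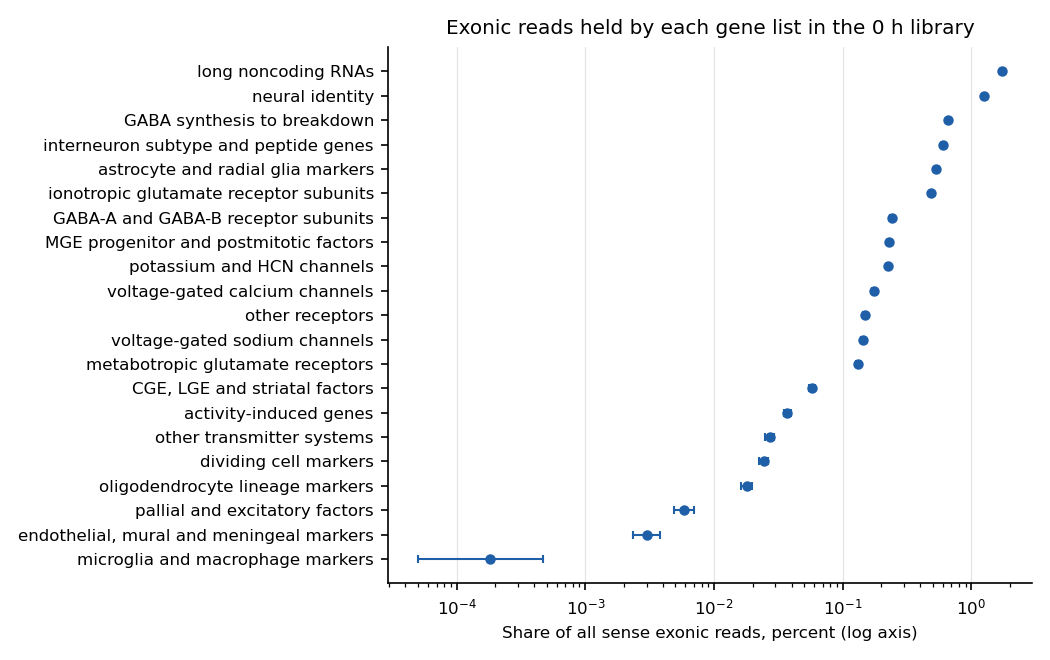
Share of all sense exonic reads held by each of 21 gene lists (points, log axis) with exact binomial 95% intervals, in the 0 h library. GABA handling (0.658%) and astrocyte and radial glia genes (0.532%) lay close together, while pallial (0.00585%), vascular (0.00301%) and microglial genes (0.000183%) lay lowest.

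Noncoding RNAs with only noncoding RefSeq accessions were few and uneven in level. Of 55 such models, 38 had at least 200 bases, 11 of these were measured and 16 had 0 reads. The 38 held 43763 reads, 2.0% of exonic reads, and Snhg1, Rmrp and Gas5 alone held 88.0% of that. Below them stood Peg13 at 93.1 (87.3 to 99.2), an imprinted RNA of the brain, Xist at 81.3 (78.5 to 84.2, 3191 reads), the X-inactivation RNA, and Dlx1as at 75.0 (61.3 to 90.9), which runs antisense to Dlx1. The intervals of Xist overlapped those of Dlx1as, and those of Dlx1as overlapped those of Peg13. Tug1 had 54.9, Snhg3 had 27.4, 6430411K18Rik had 21.5 and Dlx6as (Dlx6os2) had 8.43, while Pvt1 was at 4.31.

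In the wider list of long noncoding RNAs, 26 of 41 entries matched a gene and 16 were measured (61.5%, against 37.9% of all models). Malat1 was among the entries without a match and was not analysed here, so the ranking of noncoding RNAs leaves it out. A930034L06Rik (Snhg11), a neuronal transcript, stood at 171 (164 to 179) and Gtl2 (Meg3), an imprinted RNA, at 165 (153 to 177), with overlapping intervals, though the index of 0.438 makes the level of Meg3 a lower bound. Meg3 differed in having 3723 intronic reads, 83.0% of its reads, against 5.30% for Snhg11. Air (Airn) had 1 read, and H19, Tsix and LOC668253 (Dleu2) had none. Of 13 small structured RNAs listed, 9 matched no gene. Among the matched ones, Rnu11, of the minor spliceosome, had an RPKM of 1945 (1772 to 2132). Its index of 0.176 makes this an undercount, and it moved from rank 11 by RPKM to rank 1 under the authors' coverage. Terc had 1 read and Rpph1 had none.

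Strand mattered for some of these zeros. The files place Rpph1, the RNA of RNase P, on the plus strand of mm9, where GENCODE gives the minus strand. It had 7864 exonic reads on the opposite strand. The model 2310043N10Rik (Neat1) is likewise on the plus strand in the files and the minus strand in GENCODE, with 2 sense exonic reads and 25032 antisense intronic reads. The values at or near 0 for these 2 genes are therefore no measure of their RNA. Tsix, which overlaps Xist on the opposite strand, had 0 sense and 376 antisense exonic reads.

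Of 17 snoRNA models, 14 were measured, with a median RPKM of 2163, and they held 0.534% of exonic reads. In all, 76 models had fewer than 200 exonic bases, 15 of these were measured, and 9 stood among the 15 highest by RPKM. The 15 were the 14 snoRNAs and Rnu11. Inserts were selected by size, so the RPKM of such short RNAs cannot be set against that of long transcripts.

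About as many sense reads fell in introns as in exons. The intronic share, intronic reads over intronic plus exonic reads, was 49.2% when all genes were pooled (49.2% to 49.3%). The 3 genes with most intronic reads, Cdk8 and 2610528E23Rik (Cmss1) among them, held 399895, 18.8% of the total, and without them the pooled share was 44.0%. Per gene, among 8896 genes with introns and at least 50 reads, the median share was 35.3%, with quartiles of 17.5% and 58.2%. A share of at least 50% was found in 2931 of them (32.9%).

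The share followed intron length closely, while the density of reads did not. Across genes, which are not independent replicates, the Spearman correlation of the share with intronic bases was 0.663 (8896 genes), and that of the ratio of intronic to exonic reads per base was -0.069. Genes with up to 1000 intronic bases had a median share of 1.82% (149 genes), and those from 1001 to 10000 had 12.6% (1853 genes). The next bins, up to 100000 and 1000000 bases, had 36.0% (5372 genes) and 70.4% (1488 genes). The 34 genes over 1000000 had 92.1%. Over the same bins the median density ratio went from 0.0671 to 0.0446, with a median of 0.0570 over all genes, so that the median was well under 1 in every bin.

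**Figure D5:**
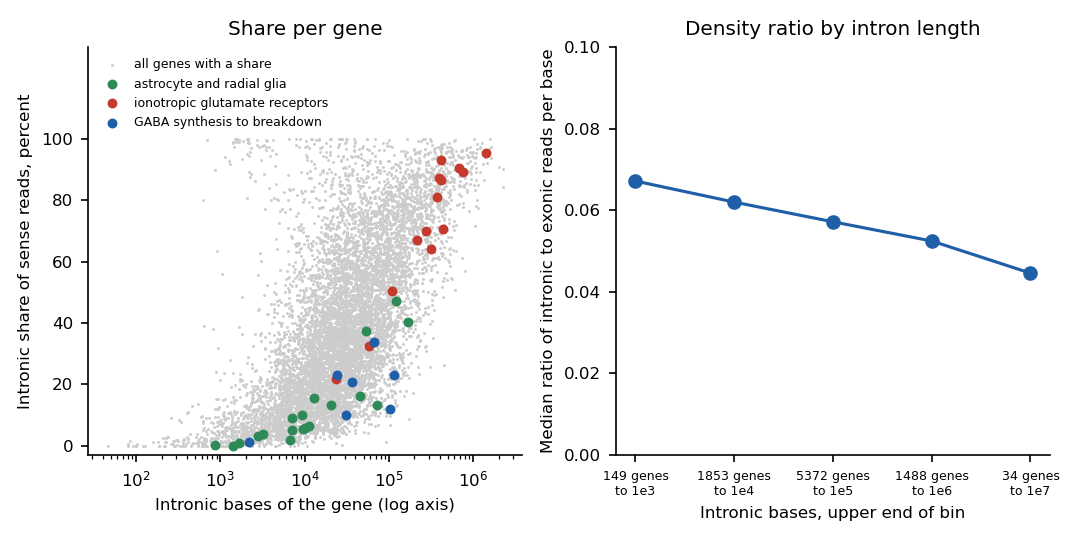
Left, intronic share of sense reads (percent) against intronic bases (log axis) for 8896 genes of the 0 h library (grey) and 3 lists (colour). Right, the median ratio of intronic to exonic reads per base in 5 bins of intron length, with the number of genes. The median share is 1.82% in the bin of the shortest introns and 92.1% in that of the longest, while the density ratio lies between 0.0671 and 0.0446.

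Gene lists differed in intronic share, in an order that was not in all cases that of their intron length. Ionotropic and metabotropic glutamate receptors, which are long genes, had medians of 75.8% (14 genes, 12 at or over 50%) and 76.6% (6 of 6 at or over 50%). Potassium and HCN channels had 65.3%, calcium channels 58.6%, GABA receptors 41.4% and sodium channels 28.7%. MGE factors stood at 21.3%, GABA handling genes at 20.7% and housekeeping genes at 11.2%. Astrocyte and radial glia markers had 6.38% (19 genes, none at or over 50%). The median intronic bases of the glutamate receptor lists were 381800 and 457090, and those of the astrocyte list were 9559. Sodium channels, neural identity genes and GABA handling genes had 88184, 73908 and 36618 median intronic bases, above the 27655 of all genes. Their median shares of 28.7%, 32.4% and 20.7% nevertheless lay below the 35.3% of all genes.

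Set on the density scale, the order of the lists changed. The median density ratio was 0.0180 for astrocyte markers, 0.0151 for GABA handling genes and 0.0178 for neural identity genes. It was 0.0428 for ionotropic glutamate receptors, 0.0722 for MGE factors and 0.0790 for potassium channels, against 0.0570 over all genes. The glutamate receptors, with a median share of 75.8% against 35.3% over all genes, therefore lay below that median by density. Among the 5 markers, the share was 33.9% for Gad2, 26.2% for Reln, 20.7% for Gad1, 16.7% for Lhx6 and 1.04% for Sst, which has 665 intronic bases.

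Reads across exon borders gave a second readout, in which the length of the intron is not counted. Its Spearman correlation with intronic bases was 0.275 over 1043 genes, against 0.663 for the intronic share over 8896. The 1043 are those of the 8896 with at least 50 reads across borders and splices. The intronic share was not correlated over the 1043 alone, so the values are not like for like. Reads across an exon-intron border numbered 20970 and reads across an exon-exon splice 198453, so that borders made up 9.56% of both (9.43% to 9.68%). Each intron has 2 borders and 1 splice. The border share was 3.80% for GABA handling genes (2.79% to 5.06%) and 3.81% for astrocyte markers (2.77% to 5.09%). It was 4.65% for GABA receptors (2.97% to 6.89%) and 11.1% for ionotropic glutamate receptors (9.37% to 13.0%). The interval of the glutamate receptors did not overlap those of these 3 lists. It held the 9.56% of all genes and overlapped the intervals of several other lists. Among them were MGE factors at 12.8% (9.09% to 17.4%) and potassium and HCN channels at 10.8% (7.46% to 15.0%). Calcium channels at 8.85% (6.75% to 11.3%) and sodium channels at 8.76% (5.57% to 13.0%) were others. All reads come from 1 library.

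The longest genes had high shares throughout. The 34 genes with over 1000000 intronic bases held 120831 intronic reads, 5.69% of the total. Their shares went from 71.8% for Cdh13 to 100% for Ctnna3, which had 76 intronic and 0 exonic reads. The introns of Ctnna3 held more antisense reads, 263. In 1700112E06Rik (Lrmda), also at 100% with 0 exonic reads, the introns held 73 sense and 60 antisense reads. The shares of 100% are therefore no firm measure of transcripts of these genes. Erbb4, a subtype gene named above, had 19972 intronic reads in 1063789 intronic bases, a share of 92.2%. Nrxn3, a presynaptic adhesion gene, had 14637 intronic reads, and Odz2 (Tenm2) had 10033. In Erbb4, Nrxn3 and Tenm2 the leading intron held 62.3%, 49.5% and 85.0% of the intronic reads, and the density ratios were 0.0478, 0.0554 and 0.122.

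A few genes owed their place to 1 intron. Cdk8 had 170936 intronic reads, 99.8% of them in intron 2 of 12, beside 31 exonic reads. Cmss1 had 91000, of which 90992 lay in intron 1. Camk1d had 14786, of which 96.3% lay in intron 3. Without that intron the share was 90.2% for Cdk8, 53.3% for Cmss1 and 64.7% for Camk1d, against at least 98.0% with it in each. In all, 33 genes with at least 500 reads and 5 introns had at least 90% of their intronic reads in 1 intron. They held 457355 reads, 21.5% of all intronic reads.

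The highest shares, among 1828 genes with at least 500 reads, had further limits. Il31ra, Rps13, Rpl23a, Timm23, Rpl5 and Rps12 had 0 exonic reads and 764 to 3210 intronic reads, followed by Cmss1 and Cdk8. In Rps13, Rpl23a, Timm23, Rpl5 and Rps12 the authors' mappability index of the exons was 0.0205 or lower, so that almost no exonic read could map to 1 place. Il31ra had an index of 0.943 and 761 of its 764 reads in 1 of 16 introns.

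Ribosomal protein genes showed this as a class. Of 78 genes, 21 were measured (26.9%, against 37.9% of all models) and 23 had 0 exonic reads. The median mappability index was 0.131, against 0.927 over all models. Their median intronic share was 97.3% over the 33 genes with at least 50 reads in exons and introns together. A gene with few exonic reads reaches that minimum only through its introns, as Rpl13 did with 1 exonic and 934 intronic reads. The filter itself therefore favours high shares, and the median does not describe all 78 genes. Rpl8, with an index of 0.824, had an RPKM of 236 and a share of 0.694%. Among housekeeping genes, Gapdh had 10 reads with an index of 0.00282, and Ppia had none. The levels of these genes are lower bounds.

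At the other end stood genes with almost no intronic reads. Zcchc18 had no intronic read beside 647 exonic ones (exact interval 0% to 0.569%). LOC100042862 stood at 0.107%, Irgq at 0.185%, Scd1 at 0.275%, Xist at 0.312%, Tubb5 at 0.315%, Map1lc3a at 0.329% and Marcks at 0.362%. Xist had 10 reads in 4943 intronic bases beside 3191 in exons, a density ratio of 0.0114. The noncoding RNAs Meg3 and Snhg3, by contrast, had shares of 83.0% and 92.0%.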

How the data were processed

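Uniquely mapped reads of 35 bases were counted by the authors per gene, sense and antisense, in exons, introns, across splices and borders and in the 500 bases on either side, per the deposited counting log, with up to 3 mismatches and repeated reads kept. The deposited values are whole-number counts, not normalized. The authors' coverage signal, scaled to 10000000 mapped reads and corrected for mappability, served as an alternative. The submitters' processing notes name build mm9. The aligner's name was not given in the sources used here. PCR copies are not marked, so intervals cover counting error only.

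RPKM, ranks, exact Poisson intervals (reads, RPKM), Clopper-Pearson intervals (shares) and intervals of ratios from the binomial split of reads were computed in Python 3.11.15 (numpy 2.4.6, pandas 2.3.3, scipy 1.17.1, matplotlib 3.10.9) and checked on simulated data. Depth was 2189394 exonic reads in 1 library, so no test, replicate error or p-value is given. Names came from RefSeq GRCm38.p6 (22521 of 25562 identifiers) and sequences from GENCODE M21. Of 448 list entries, 26 matched no gene and were not analysed here. Current symbols follow in brackets. Alternatives covered read minimums, same-strand overlaps, length, scaling and other readouts of the intronic share.

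The lists and members were chosen with earlier results of these data known. Named by rule were the markers, the 15 highest genes by RPKM (200 bases or more) and by reads, in each list the 4 highest, the lowest measured and those at 3 reads or fewer, the 8 genes with most intronic reads and the 8 highest and lowest intronic shares, and the 10 leading noncoding RNAs by each ranking. Other genes, the snoRNAs, ribosomal protein genes and the ratios were chosen after their values were seen. Some genes that the rule names are not reported here.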

Additional observations from a re-analysis of the deposited data

Results flagged for a closer look

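Signals at 4 genes lay in a strand or flank not used for the level of that gene, and each exceeded the floor of 3 reads. The 500 bases after LOC627695 (chr17:39981811-39983280, plus strand, mm9) held 502250 sense reads, 5.58% of all mapped reads, beside 11771 in the model itself. Within 4631422O05Rik (Filip1l, chr16:57353390-57515803, plus strand) 90910 antisense reads lay in introns, and the model lies inside that of Cmss1 (chr16:57302113-57606956, minus strand), whose first intron held 90992 sense reads, already counted for Cmss1 in the results. Rpph1 had 7864 antisense exonic reads and no sense read, with the strand in the files opposite to that in GENCODE. The 500 bases before C920006O11Rik (chr9:78023644-78027067, plus strand) held 12828 antisense reads beside 20 sense exonic reads of the gene. The source of the reads at LOC627695 and C920006O11Rik was not tested.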

How the results depend on the processing

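No paired analysis was possible because each time has 1 library, and leaving out a replicate was likewise not possible. The number of measured genes was 10936 at a minimum of 10 reads, 7230 at 50 and 9250 without same-strand overlaps, each within 1.5 times 9687. The median intronic share of 35.3% was 37.2% at a minimum of 200 reads, 34.7% without same-strand overlaps and 33.3% after subtracting antisense reads. As a share of read density it was 5.41%, and as border reads against splice reads, a readout added after seeing the data, the median was 5.08% over 1043 genes. The last 2 measure reads per base and reads per junction, so their scale differs by construction. Under the authors' coverage the median percentile of none of the 24 lists tested, which leave out the ribosomal protein and snoRNA lists, shifted by more than 6.44 points, though ranks moved (Sst from 23 to 59, Lhx6 from 480 to 724). Without splice reads the largest shift was 10.6 points, and among models of at least 200 bases it was 23.2 points, for the small structured RNAs. Depth limits genes under 20 reads, and near-identical copies are undercounted.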
